A study of Mus musculus with 9 samples.

Results

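RNA-seq values of 7 genes of cholesterol metabolism were followed across 3 populations of spleen dendritic cells (DCs), chosen by name from the 54532 genes of the expression table. They are 6 enzymes of cholesterol synthesis (Hmgcs1, Idi1, Fdps, Fdft1, Sqle and Cyp51) and Insig1, an inhibitor of the pathway; none of the 7 is itself a receptor for cholesterol uptake. DCs called N-mDCs were mature conventional DCs from the spleens of normal, untreated mice. T-mDCs were the mature conventional DCs of mice with T cell acute lymphoblastic leukemia (T-ALL), and T-DCs were the CD11c+MHCIIlo cells of such mice, labelled immature. Each group had 3 samples. The leukemia was made by a retrovirus that carried the intracellular domain of Notch1 together with GFP, and GFP+ leukemia cells were passed into non-irradiated C57BL/6J or C57B6.SJL mice. The methods do not say which of these strains gave these samples. Mice were female and 6 to 8 weeks old, and cells were sorted on day 15. T-DCs were sorted, after red cell lysis and CD11c bead enrichment, from spleen cells that lacked GFP and lymphocyte markers, so low MHCII was part of how they were chosen. Between T-DCs and N-mDCs, the leukemia and the low MHCII gate cannot be told apart. The labels do not say whether the samples of a group came from separate mice or pools, so p-values measure only the spread between these samples, which may be technical.

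Cells build cholesterol from acetyl-CoA through mevalonate, isoprenoids, squalene and lanosterol. When membrane sterol falls, SCAP carries SREBP proteins from the endoplasmic reticulum to the Golgi, where they are cut, and the freed fragment enters the nucleus and switches on the synthesis genes. INSIG1 holds SCAP in the endoplasmic reticulum when sterol is plentiful, and its own gene is a target of SREBP. In DCs and macrophages, membrane cholesterol and oxysterols are known to bear on activation and antigen presentation.

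All 7 genes had the same position in the deposited table and in GENCODE M21 (mouse genome build GRCm38, the build the labels name as mm10). Hmgcs1 lies at chr13:119690379-119708260 and Idi1 at chr13:8885501-8892451, both on the plus strand. Fdps lies at chr3:89093588-89101959 and Fdft1 at chr14:63145150-63179578, both on the minus strand. Sqle lies at chr15:59315077-59331192 on the plus strand. Cyp51 at chr5:4081145-4104746 and Insig1 at chr5:28071363-28078662 share a chromosome, on the minus and plus strands. The lengths in the table equal the merged exons of GENCODE, UTRs included. The promoter table of RefSeq (GRCm38.p6) held 4 of the 7 genes, and the 250 bases before the RefSeq start of each were searched because SREBPs act at such promoters together with NF-Y and Sp1. RefSeq starts differ from the GENCODE starts above, so that 49 bases of the window of Cyp51, 49 of Insig1 and 105 of Idi1 lie inside the GENCODE gene, in its first exon. Those bases were searched but are not shown, and Idi1, whose matches were all among them, is not shown. Capitals mark the letters of a sterol regulatory element (TCACCCCAC), of the NF-Y box CCAAT and of the Sp1 box GGGCGG, on either strand, so that a box on the opposite strand reads ATTGG or CCGCCC. Lines run 5' to 3' on the strand of the gene.
Hmgcs1: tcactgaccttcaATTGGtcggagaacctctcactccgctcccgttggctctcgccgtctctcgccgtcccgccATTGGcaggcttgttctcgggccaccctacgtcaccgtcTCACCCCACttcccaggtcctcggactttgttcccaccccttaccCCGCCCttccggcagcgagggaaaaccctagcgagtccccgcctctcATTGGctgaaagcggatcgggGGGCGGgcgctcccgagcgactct
Cyp51: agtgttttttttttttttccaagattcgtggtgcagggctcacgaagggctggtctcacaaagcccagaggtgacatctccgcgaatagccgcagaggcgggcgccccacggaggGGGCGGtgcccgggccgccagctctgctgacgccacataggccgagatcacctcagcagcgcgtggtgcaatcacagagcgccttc
Insig1: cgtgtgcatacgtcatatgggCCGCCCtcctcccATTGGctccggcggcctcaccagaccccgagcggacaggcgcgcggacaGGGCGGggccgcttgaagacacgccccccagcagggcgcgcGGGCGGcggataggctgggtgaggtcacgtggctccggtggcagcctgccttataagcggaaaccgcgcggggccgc

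The bases shown lie at chr13:119690101-119690350 (plus strand) for Hmgcs1, chr5:4104747-4104947 (minus strand) for Cyp51 and chr5:28071162-28071362 (plus strand) for Insig1. The window of Idi1 was chr13:8885356-8885605 (plus strand). The Hmgcs1 promoter held TCACCCCAC, which begins 137 bases before the RefSeq start. This motif was in 0.496% of 32851 promoters of the same length, and its core CACCCCAC, which lies inside it, was in 2.58%; neither was found in the other 3 windows. CCAAT was in all 4 windows, 3 times in Hmgcs1, 2 times in Idi1 and 1 time each in Cyp51 (inside the GENCODE gene) and Insig1, and in 33.8% of all promoters. GGGCGG was also in all 4 and in 32.7% of all promoters, with 3 copies in Insig1, 2 in Hmgcs1 and 1 each in Cyp51 and Idi1. These are matches of letters, and binding was not measured.

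Between 15360815 and 18440913 reads fell on genes in each sample. Values are FPKM, the reads on a gene per kilobase of its length, scaled to the size of the library. Markers of DCs were detected in every sample, but T-DC samples 2 and 3 stood apart from T-DC sample 1. The summed FPKM of 10 DC markers was 715.1, 339.5 and 189.5 in T-DC samples 1 to 3, against 733.3 to 842.9 in N-mDCs and 738.6 to 821.5 in T-mDCs, and 7 of the 10 were lower in T-DCs in each of the comparisons with N-mDCs and T-mDCs by the test described for the 7 genes. In T-DC sample 1, Sirpa alone made 404 FPKM of this sum, beside 195 to 244 FPKM in N-mDCs. Each other DC marker was lower in T-DC sample 1 than in every N-mDC sample, such as Flt3 at 15.4 FPKM against 44.4 to 78.8 FPKM. Zbtb46, a transcription factor that defines conventional DCs, was at 1.84 to 3.42 FPKM in T-DCs and at 10.7 to 23.5 FPKM in the other samples. The sum of 10 red cell markers was 613.1 in T-DC sample 1 and 58546.1 and 42980.5 in samples 2 and 3, against 99.8 to 5365 in N-mDCs and 15.4 to 182.3 in T-mDCs. The sum of 17 cell cycle genes was 239.4 in T-DC sample 1 and 1805.3 and 1997.2 in samples 2 and 3, against 256.8 to 316.7 in N-mDCs and 412.1 to 516.2 in T-mDCs. Sums of 8 neutrophil markers were 12.3, 3462.7 and 1209.9 in T-DC samples 1 to 3, 62.8 to 662.8 in N-mDCs and 4.6 to 13.4 in T-mDCs. Sums of 13 T lineage markers were 18 to 52.2 in T-DCs, 152.8 to 187.6 in N-mDCs and 79.2 to 160.6 in T-mDCs. In N-mDCs and T-mDCs these sums were mostly Cd4, Cd8a and Dtx1, and other markers of the list had another order. Lck, a kinase of T cell receptor signalling, was at 0.572, 10.2 and 3.78 FPKM in T-DC samples 1 to 3, at 5.09 to 11.8 FPKM in N-mDCs and at 1.28 to 1.63 FPKM in T-mDCs. Ptcra, of immature T cells, was at 0.392, 1.86 and 0.359 FPKM in T-DC samples 1 to 3, above all other samples (0 to 0.289 FPKM). Thy1 was at 0.690, 8.23 and 1.28 FPKM in T-DC samples 1 to 3, at 1.86 to 6.57 FPKM in N-mDCs and at 0.407 to 1.62 FPKM in T-mDCs. Sums of 11 macrophage and monocyte markers were 3317.3, 1222.1 and 788.7 in T-DC samples 1 to 3, 1667.5 to 3501.7 in N-mDCs and 488.9 to 1422.7 in T-mDCs. The 7 B cell and plasma cell markers summed to 65.9 to 519.6 in T-DCs, 273.5 to 631.8 in N-mDCs and 54.3 to 275 in T-mDCs, and the 6 NK cell markers to 2.2 to 15.7, 44.1 to 116.6 and 6.1 to 13.2. T-mDC samples 2 and 3 were closer to each other (median absolute log2 difference over tested genes 0.0665) than the other pairs within a group (0.202 to 0.624). In bulk samples, fewer cells of a type and less RNA per cell cannot be told apart.

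N-mDCs expressed Hmgcs1, Cyp51 and Insig1 at higher levels than T-DCs, by 2.38-fold, 3.54-fold and 3.81-fold in mean FPKM. Sqle, Fdft1 and Idi1 had T-DC sample 1 far below N-mDCs and T-DC samples 2 and 3 within or above their range. The 6 genes are described in these sets, since T-DC samples were more even in the first than in the second.

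**Figure D1:**
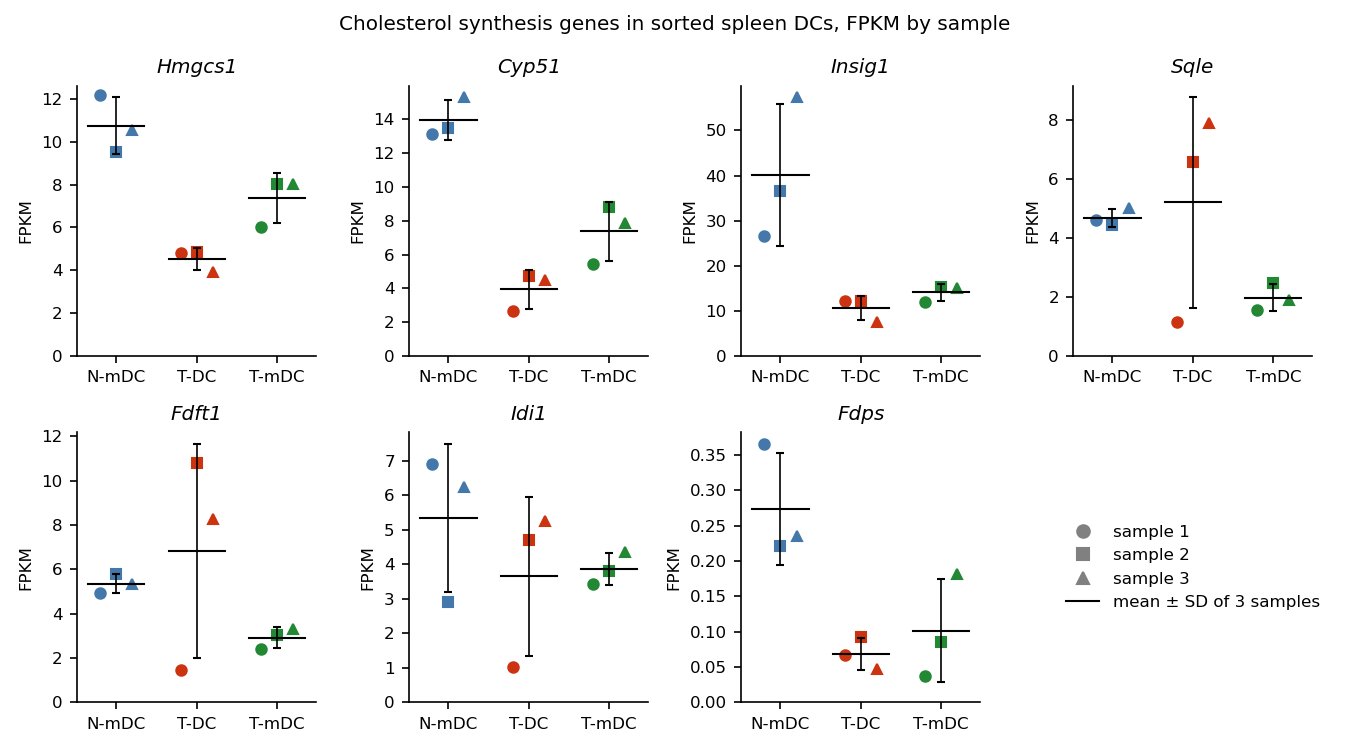
FPKM of each of the 7 genes (y axis, linear from 0) in the 3 samples of each DC group (x axis); symbols mark sample 1, 2 and 3, and bars give the mean ± SD. All T-DC samples of Hmgcs1, Cyp51 and Insig1 lie below all N-mDC samples, while for Sqle, Fdft1 and Idi1 T-DC sample 1 lies far below T-DC samples 2 and 3.

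Hmgcs1 encodes HMG-CoA synthase, an early enzyme on the way to mevalonate. It was at 12.2, 9.55 and 10.5 FPKM in N-mDC samples 1 to 3, at 4.79, 4.87 and 3.91 FPKM in T-DC samples 1 to 3 and at 6.01, 8.05 and 8.05 FPKM in T-mDC samples 1 to 3. All T-DC samples were below all T-mDC samples, which were below all N-mDC samples. The group means were 10.8 ± 1.34, 4.53 ± 0.531 and 7.37 ± 1.18 FPKM (SD, n = 3) in the order N-mDC, T-DC and T-mDC. Cyp51 encodes lanosterol 14-alpha-demethylase, the first step from lanosterol towards cholesterol. It was at 13.1, 13.5 and 15.3 FPKM in N-mDCs, at 2.63, 4.75 and 4.49 FPKM in T-DCs and at 5.45, 8.79 and 7.88 FPKM in T-mDCs. It had the same order of groups as Hmgcs1, again with no overlap. Its means were 14.0 ± 1.19, 3.96 ± 1.16 and 7.37 ± 1.73 FPKM (SD, n = 3). Insig1, the brake on SREBP processing, was at 26.6, 36.5 and 57.4 FPKM in N-mDCs, at 12.1, 12.1 and 7.45 FPKM in T-DCs and at 12.0, 15.3 and 15.01 FPKM in T-mDCs. Its N-mDC samples were the most spread, and T-DCs and T-mDCs overlapped. The means were 40.2 ± 15.7, 10.5 ± 2.68 and 14.1 ± 1.83 FPKM (SD, n = 3).

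The 12746 genes that reached an FPKM of 1 in 3 or more samples were compared with limma on log2(FPKM + 1), all 9 samples in 1 fit and Benjamini-Hochberg adjustment over all of them at a threshold of 0.05. Because 1 is added, differences of low genes are understated. Of the 7 genes 6 passed the filter. In T-DCs 3 of them were lower against N-mDCs, beside 10.3% of all tested genes lower and 16.4% changed in either direction; 0 of the 6 were higher, beside 6.1%. Hmgcs1 differed by -1.09 (log2, SE 0.18, 95% interval -1.49 to -0.69, limma adjusted p = 0.00589). Cyp51 differed by -1.62 (SE 0.23, interval -2.16 to -1.09, limma adjusted p = 0.00366). For Insig1 the difference was -1.79 (SE 0.30, interval -2.47 to -1.12, limma adjusted p = 0.00636). For these 3 genes no T-DC sample reached the N-mDC range, as for 16.4% of all tested genes that were lower without overlap. The median log2 difference of the 6 genes was -0.82, where that of all tested genes was 0.05. Leaving out T-DC samples 2 and 3 gave differences of -1.02 for Hmgcs1 (limma adjusted p = 0.0531), -2.04 for Cyp51 (limma adjusted p = 0.0187) and -1.58 for Insig1 (limma adjusted p = 0.0678), with the lone T-DC sample assumed to vary like the other groups. With the red cell list as a covariate the limma adjusted p was 0.0670 for Hmgcs1, 0.0218 for Cyp51 and 0.0706 for Insig1, with log2 differences of -0.88, -1.89 and -1.65. The DC marker sum was also lower in each T-DC sample than in each N-mDC sample, and its part in these differences was not tested.

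Sqle encodes squalene epoxidase, the enzyme that follows squalene synthase. It was at 4.61, 4.42 and 5.01 FPKM in N-mDC samples 1 to 3, at 1.16, 6.57 and 7.89 FPKM in T-DC samples 1 to 3 and at 1.57, 2.46 and 1.89 FPKM in T-mDC samples 1 to 3. T-DC sample 1 was below every other sample, and T-DC samples 2 and 3 were above every other sample. Fdft1 encodes squalene synthase, which joins farnesyl units into squalene. It was at 4.95, 5.77 and 5.36 FPKM in N-mDCs, at 1.44, 10.8 and 8.27 FPKM in T-DCs and at 2.39, 3.02 and 3.32 FPKM in T-mDCs. The T-DC samples took the same places as for Sqle, below and above all other samples. Idi1 encodes the isomerase that sets up isoprenoid building blocks for chain growth. It was at 6.90, 2.91 and 6.25 FPKM in N-mDCs, at 1.02, 4.71 and 5.24 FPKM in T-DCs and at 3.43, 3.81 and 4.36 FPKM in T-mDCs. T-DC sample 1 was again lowest, while T-DC samples 2 and 3 lay within the range of N-mDCs.

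The means of Sqle were 4.68 ± 0.297, 5.21 ± 3.57 and 1.97 ± 0.454 FPKM (SD, n = 3) in the same order of groups. Those of Fdft1 were 5.36 ± 0.413, 6.83 ± 4.83 and 2.91 ± 0.473 FPKM, and those of Idi1 were 5.35 ± 2.14, 3.66 ± 2.30 and 3.87 ± 0.467 FPKM. None of the 3 passed the test between T-DCs and N-mDCs. Sqle differed by -0.11 (log2, interval -1.17 to 0.95, limma adjusted p = 0.891) and Idi1 by -0.55 (interval -1.55 to 0.46, limma adjusted p = 0.405). The value of Fdft1 was 0.02 (interval -1.13 to 1.17, limma adjusted p = 0.983), and it was -0.15 after rescaling to TPM and -0.05 after quantile normalization. The interval of Fdft1 is wide enough to hold a 2-fold difference on this scale in either direction. Without T-DC sample 1, where 39.5% of all tested genes were called, Sqle was 0.53 higher (limma adjusted p = 0.0413) and Fdft1 0.72 higher (limma adjusted p = 0.0130) in T-DCs. Without T-DC samples 2 and 3, Sqle fell by 1.40 (limma adjusted p = 0.0266) and Fdft1 fell by 1.38 (limma adjusted p = 0.0233). The direction for both genes was thus set by which T-DC samples were used.

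**Figure D2:**
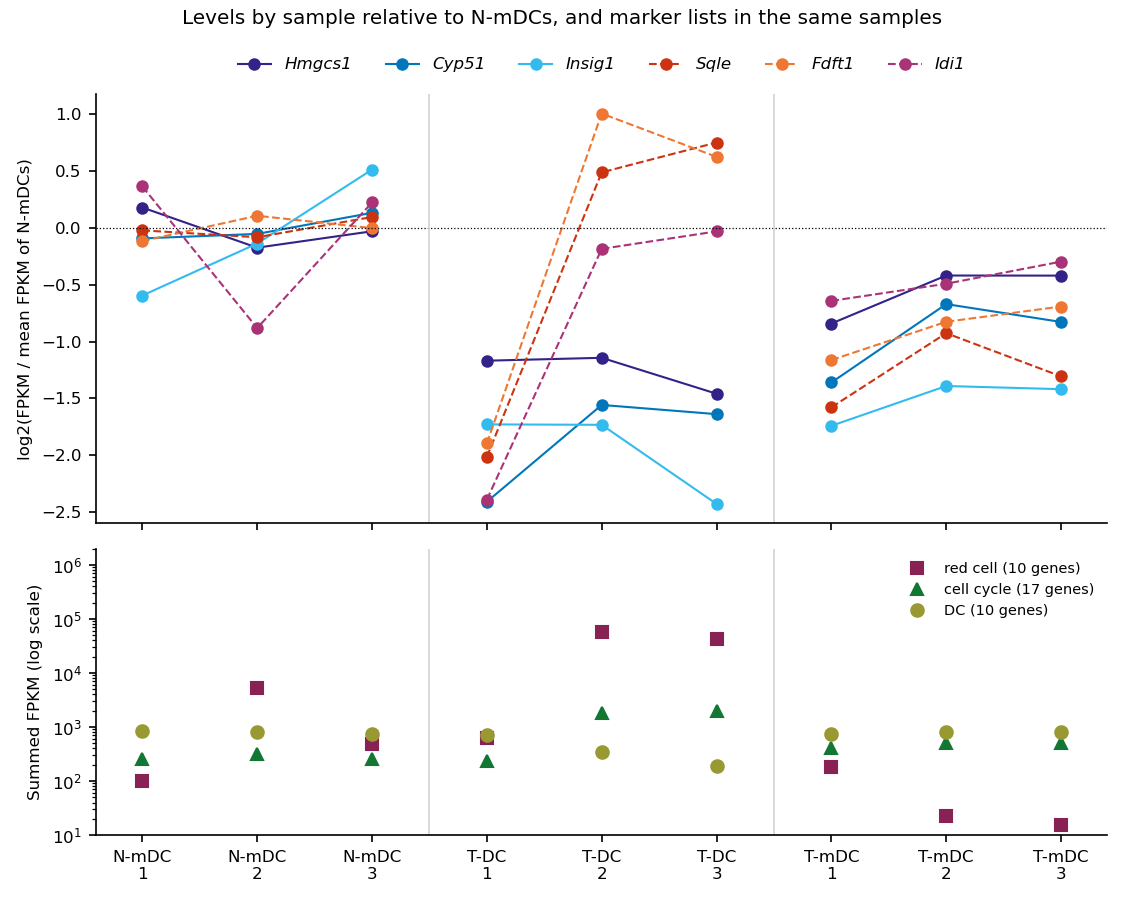
Upper panel, log2 of FPKM over the mean FPKM of N-mDCs (y axis) for 6 genes in each of the 9 samples (x axis), solid lines for Hmgcs1, Cyp51 and Insig1 and dashed lines for Sqle, Fdft1 and Idi1; lines join samples of a group only to guide the eye. Lower panel, summed FPKM of red cell, cell cycle and DC markers (log scale) in the same samples: red cell and cell cycle sums are high in T-DC samples 2 and 3, where Sqle, Fdft1 and Idi1 are also higher than in T-DC sample 1.

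The 6 genes had been put in sets by their evenness among T-DC samples, so the spread differed between the sets by choice. The highest T-DC sample was 7.49 times the lowest for Fdft1, 6.81 times for Sqle and 5.14 times for Idi1. It was 1.81 times the lowest for Cyp51, 1.63 times for Insig1 and 1.25 times for Hmgcs1. Within T-DCs, the log2 SD of Fdft1 was reached by 6.31% of tested genes, that of Sqle by 7.49% and that of Idi1 by 11.4%. That of Hmgcs1 was reached by 86.3%, and those of Cyp51 and Insig1 by 51.3% and 51.4%. T-DC samples 2 and 3 were both at least 4-fold above T-DC sample 1 for Sqle, Fdft1 and Idi1, 3 of the 6 tested genes, beside 7.12% of all tested genes. Among 33 other tested genes of cholesterol metabolism 1 did so, Lbr, which encodes a sterol-reducing enzyme of the nuclear envelope. It was at 22.8, 138 and 105 FPKM in T-DC samples 1 to 3. The proliferation gene Mki67 was at 8.25, 247 and 183 FPKM in the same samples. With the mean of the cell cycle list as a covariate, which was added once the values were known, 5 of the 6 genes were lower in T-DCs against N-mDCs, Sqle by -1.27 (limma adjusted p = 0.0123) and Fdft1 by -1.23 (limma adjusted p = 0.0156) among them, beside 10.7% of all tested genes called. The cell cycle sum stood out in T-DC samples 2 and 3, so the fit with this covariate rests mostly on T-DC sample 1. It is not evidence apart from the fit that left out T-DC samples 2 and 3. The part of other cells, of red cell RNA and of cycling cells in these values was not tested.

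Fdps encodes farnesyl diphosphate synthase, the source of the farnesyl units that Fdft1 joins. It was listed at 0.365, 0.221 and 0.236 FPKM in N-mDCs, at 0.0663, 0.0920 and 0.0470 FPKM in T-DCs and at 0.0378, 0.0861 and 0.181 FPKM in T-mDCs. These values stand for 3 to 24 reads, Fdps did not pass the filter and it was not tested. Of its transcript, 91.4% matched 6 other genes at an identity of at least 95% over at least 100 bases, and Gm43738 alone matched 81.6%, so the level of Fdps is uncertain. Gm43738 also lies over Fdps on the same strand, and its exons share 1124 bases with those of Fdps (26.7% of Fdps exons). How the authors treated reads with several matches is not given in the sources used here. Similar stretches covered 33.7% of Fdft1 (1 pseudogene), 22.6% of Idi1 (2 genes) and 7.0% of Insig1 (1 pseudogene), and none of Hmgcs1, Sqle or Cyp51. On the opposite strand, exons of Ctsb overlap 18.3% of Fdft1 exons, and other genes overlap 12.1% of Hmgcs1, 9.2% of Idi1 and 3.8% of Cyp51. Whether counting used strand is not given, so reads on those bases cannot be told apart.

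FPKM is scaled here by the length of merged exons, so levels of different genes can be set beside each other only roughly. That length is 5546 bases for Sqle and 4227 for Fdft1, where their longest protein-coding transcripts have 2758 and 3698 bases. The order of Sqle and Fdft1 given here depends on the length used. In N-mDCs, Insig1 had the highest mean (40.2 FPKM), followed by Cyp51 (14.0 FPKM) and Hmgcs1 (10.8 FPKM), whose samples did not overlap. Fdft1, Idi1 and Sqle followed at 5.36, 5.35 and 4.68 FPKM with overlapping samples. In T-DCs, Insig1 was again first at 10.5 FPKM, but each neighbour in the order overlapped the next, from Fdft1 at 6.83 FPKM down through Sqle, Hmgcs1 and Cyp51 to Idi1 at 3.66 FPKM. In T-mDCs, Insig1 was first at 14.1 FPKM, apart from Cyp51 and Hmgcs1, which overlapped at 7.37 FPKM each. Idi1 followed at 3.87 FPKM, apart from Fdft1 at 2.91 FPKM, which overlapped Sqle at 1.97 FPKM.

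In mature DCs, the group means from leukemic mice were the lower ones for all 6 tested genes, but none of the 6 passed the test. N-mDCs and T-mDCs also differed in DC markers, with means of 14.4 and 50.8 FPKM for Xcr1 and 76.6 and 18.7 FPKM for Cd209a. The part of such differences between the groups in these values was not tested. For Insig1, Cyp51, Hmgcs1, Fdft1 and Sqle, all T-mDC samples were below all N-mDC samples, 5 of 6 genes beside 15.7% of all tested genes lower without overlap. By limma 0 of the 6 were called, beside 2.21% of all tested genes (1.52% lower and 0.69% higher), while 3 (Insig1, Cyp51 and Hmgcs1) had an unadjusted p under 0.05, as did 16.7% of all tested genes; limma voom on the reads recovered from FPKM also called 0. Insig1 differed by -1.38 (log2, interval -2.06 to -0.71, limma adjusted p = 0.0549), with a mean 2.85-fold higher in N-mDCs. Cyp51 differed by -0.86 (interval -1.39 to -0.33, limma adjusted p = 0.112) and Hmgcs1 by -0.50 (interval -0.90 to -0.09, limma adjusted p = 0.205). Sqle differed by -0.94 (interval -2.01 to 0.12, limma adjusted p = 0.351), Fdft1 by -0.71 (interval -1.85 to 0.44, limma adjusted p = 0.522) and Idi1 by -0.32 (interval -1.32 to 0.68, limma adjusted p = 0.756). The median of the 6 genes was -0.78, where that of all tested genes was 0.03. This call depended on the fit. The fit of all groups takes 1 spread per gene from all 3 groups, so T-DC samples enter the intervals above. For Sqle, the highest sample was 6.81 times the lowest in T-DCs, 1.13 times in N-mDCs and 1.57 times in T-mDCs. For Fdft1 it was 7.49, 1.17 and 1.39 times in the same order. The wide intervals of Sqle and Fdft1 thus include the T-DC spread and are not the spread of the mature groups alone. With only N-mDCs and T-mDCs in the fit, 4 of the 6 were lower, with limma adjusted p of 0.0244 for Sqle, 0.0399 for Fdft1, 0.0401 for Insig1 and 0.0467 for Cyp51, beside 6.67% of all tested genes called. The same 4 were called in the fit of all groups without T-DC sample 1, beside 8.02% of all tested genes. Insig1 was called without N-mDC sample 1 (limma adjusted p = 0.0439) and without T-DC sample 3 (limma adjusted p = 0.0495). These fits counted T-mDC samples 2 and 3, the closest pair, as separate samples. With their mean as 1 sample in the fit of all groups, 0 of the 6 were called, beside 0.180% of all tested genes. This was not done in the fit of only N-mDCs and T-mDCs.

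Both leukemic groups were compared next, which sets T-DCs beside mature DCs of leukemic mice. This comparison shares its T-DC samples with that against N-mDCs, so the values are given side by side and not as independent evidence. Hmgcs1 and Cyp51 were 1.63-fold and 1.86-fold higher in T-mDCs, with no overlap between samples, beside 18.1% of all tested genes lower in T-DCs without overlap. Neither passed the test, at -0.59 (log2, interval -0.996 to -0.19, limma adjusted p = 0.0572) and -0.76 (interval -1.30 to -0.23, limma adjusted p = 0.0627). Insig1 differed by -0.41 (interval -1.09 to 0.27, limma adjusted p = 0.390). Sqle, Fdft1 and Idi1 differed by 0.83, 0.73 and -0.22, with intervals of -0.23 to 1.90, -0.42 to 1.87 and -1.22 to 0.78 and limma adjusted p of 0.269, 0.369 and 0.763. By limma 0 of the 6 were called, beside 14.2% of all tested genes, and 2 had an unadjusted p under 0.05, as did 30.1% of all tested genes. Limma voom on the recovered reads called 2, Hmgcs1 (limma adjusted p = 0.0255) and Cyp51 (limma adjusted p = 0.0327), beside 15.1% of all tested genes. Rescaling to TPM also called these 2, beside 13.5%. TPM moved the median of all tested genes by -0.30, where voom moved it by -0.15. Without T-DC sample 1, where 35.1% of all tested genes were called, Sqle was 1.47 higher (limma adjusted p = 0.000620), Fdft1 1.42 higher (limma adjusted p = 0.000747) and Hmgcs1 fell by 0.63 (limma adjusted p = 0.0312) in T-DCs. Without T-mDC sample 1, Hmgcs1 (limma adjusted p = 0.0450) and Cyp51 (limma adjusted p = 0.0400) were called. Hmgcs1 and Cyp51 kept the sign in every alternative computed, but Sqle and Fdft1 turned negative without T-DC samples 2 and 3 and with the red cell list as a covariate.

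**Figure D3:**
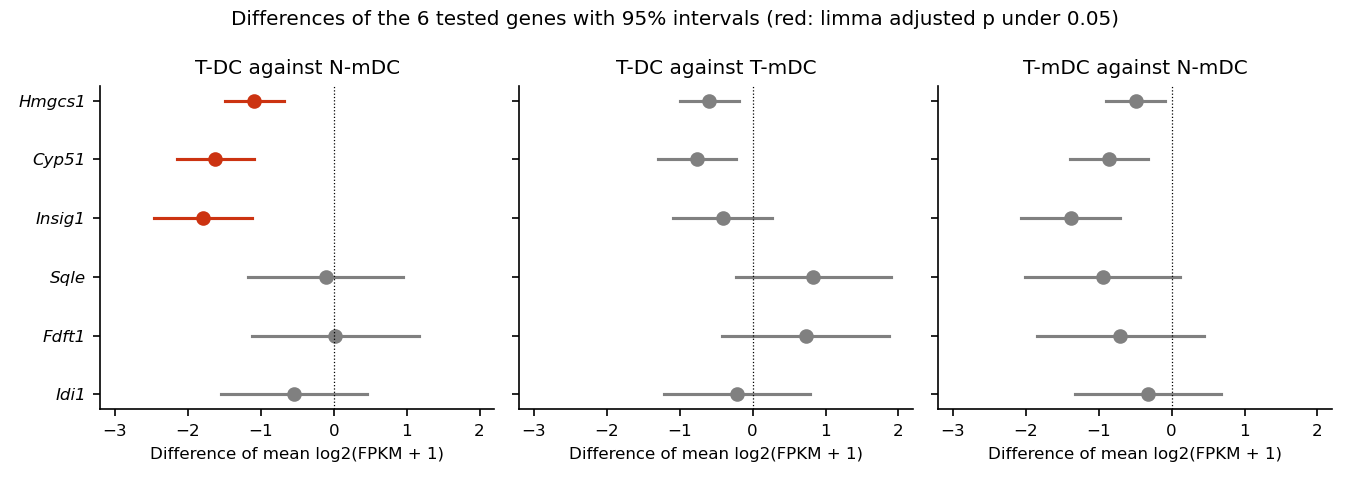
Difference of mean log2(FPKM + 1) (x axis) for the 6 tested genes (y axis) in the 3 comparisons, first group minus second; points are limma estimates, bars 95% intervals, and red marks a limma adjusted p under 0.05. Hmgcs1, Cyp51 and Insig1 are red in T-DCs against N-mDCs, at -1.09, -1.62 and -1.79, and no gene is red in the other comparisons.

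The rest of the pathway was described by 36 other genes in 5 lists, of which 33 passed the filter (Tm7sf2, Vldlr and Ch25h did not). In T-DCs against N-mDCs, 6 of the 33 were lower and 0 higher, beside 10.3% and 6.1% of all tested genes. The median of the 33 was -0.13 (log2), beside 0.05 over all tested genes. Of 5 early mevalonate and isoprenoid enzymes, 2 were lower. Mvk and Pmvk, the kinases that phosphorylate mevalonate, were lower by -1.10 (limma adjusted p = 0.0125) and -1.64 (limma adjusted p = 0.00643). Of 8 tested sterol ring enzymes 2 were lower, the methyl oxidase Msmo1 by -0.78 (limma adjusted p = 0.0142) and the desaturase Sc5d by -0.83 (limma adjusted p = 0.00728). Of 7 tested genes for esterification, oxysterols and efflux 1 was lower, Cyp27a1, the sterol 27-hydroxylase, with means of 103, 20.5 and 64.8 FPKM in the order N-mDC, T-DC and T-mDC (-2.46, limma adjusted p = 0.00577).

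Of 6 genes that control SREBPs, 1 was lower in T-DCs. Srebf2, which encodes the SREBP that mainly drives cholesterol synthesis, was at 63.8, 53.3 and 54.5 FPKM in N-mDCs, at 23.2, 31.3 and 24.6 FPKM in T-DCs and at 40.0, 55.2 and 54.7 FPKM in T-mDCs. T-DC samples were below all others, by -1.10 against N-mDCs (limma adjusted p = 0.00896) and by -0.89 against T-mDCs (limma adjusted p = 0.0215). Srebf1, whose products lean towards fatty acid synthesis, had means of 20.2, 17.8 and 14.7 FPKM in that order. Scap, the SREBP escort, had means of 13.8, 9.18 and 12.6 FPKM, and its difference between T-DCs and N-mDCs was -0.55 (limma adjusted p = 0.0946). Insig2, the relative of Insig1, had means of 5.04, 4.79 and 4.84 FPKM and differed by -0.09 between T-DCs and N-mDCs (interval -0.54 to 0.36, limma adjusted p = 0.785).

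Of 7 tested genes for uptake and intracellular transport 0 were called in T-DCs against N-mDCs by limma or by limma voom, and 2 had an unadjusted p under 0.05 by limma, as did 35.1% of all tested genes. They were Npc2, which carries cholesterol out of lysosomes (-0.75, limma adjusted p = 0.0706), and Tmem97, which binds the lysosomal transporter NPC1 (0.98, limma adjusted p = 0.131). The median of the 7 was -0.015 (log2). In T-mDCs against N-mDCs limma called 0 of the 33, as did limma voom, beside 2.21% of all tested genes by limma, and 5 had an unadjusted p under 0.05 by limma, beside 16.7% of all tested genes. In T-DCs against T-mDCs 3 of the 33 were lower and 0 higher, beside 8.79% and 5.44% of all tested genes. They were Pmvk (-1.03, limma adjusted p = 0.0396), Srebf2 and Cyp27a1 (-1.77, limma adjusted p = 0.0220), and they were past the threshold in 12, 14 and 13 of 22 alternatives. The median of the 33 in T-DCs against T-mDCs was -0.0025 (log2), beside 0.068 over all tested genes, and 17 of the 33 were below 0. For the 7 uptake and transport genes the median was 0.58, with 2 of the 7 below 0 and 0 called. With the red cell list as a covariate, 3 of the 33 were lower in T-DCs against N-mDCs, beside 3.93% of all tested genes called. Against T-mDCs this fit called 0 of all 12746 tested genes, so it says nothing about the 33.

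**Figure D4:**
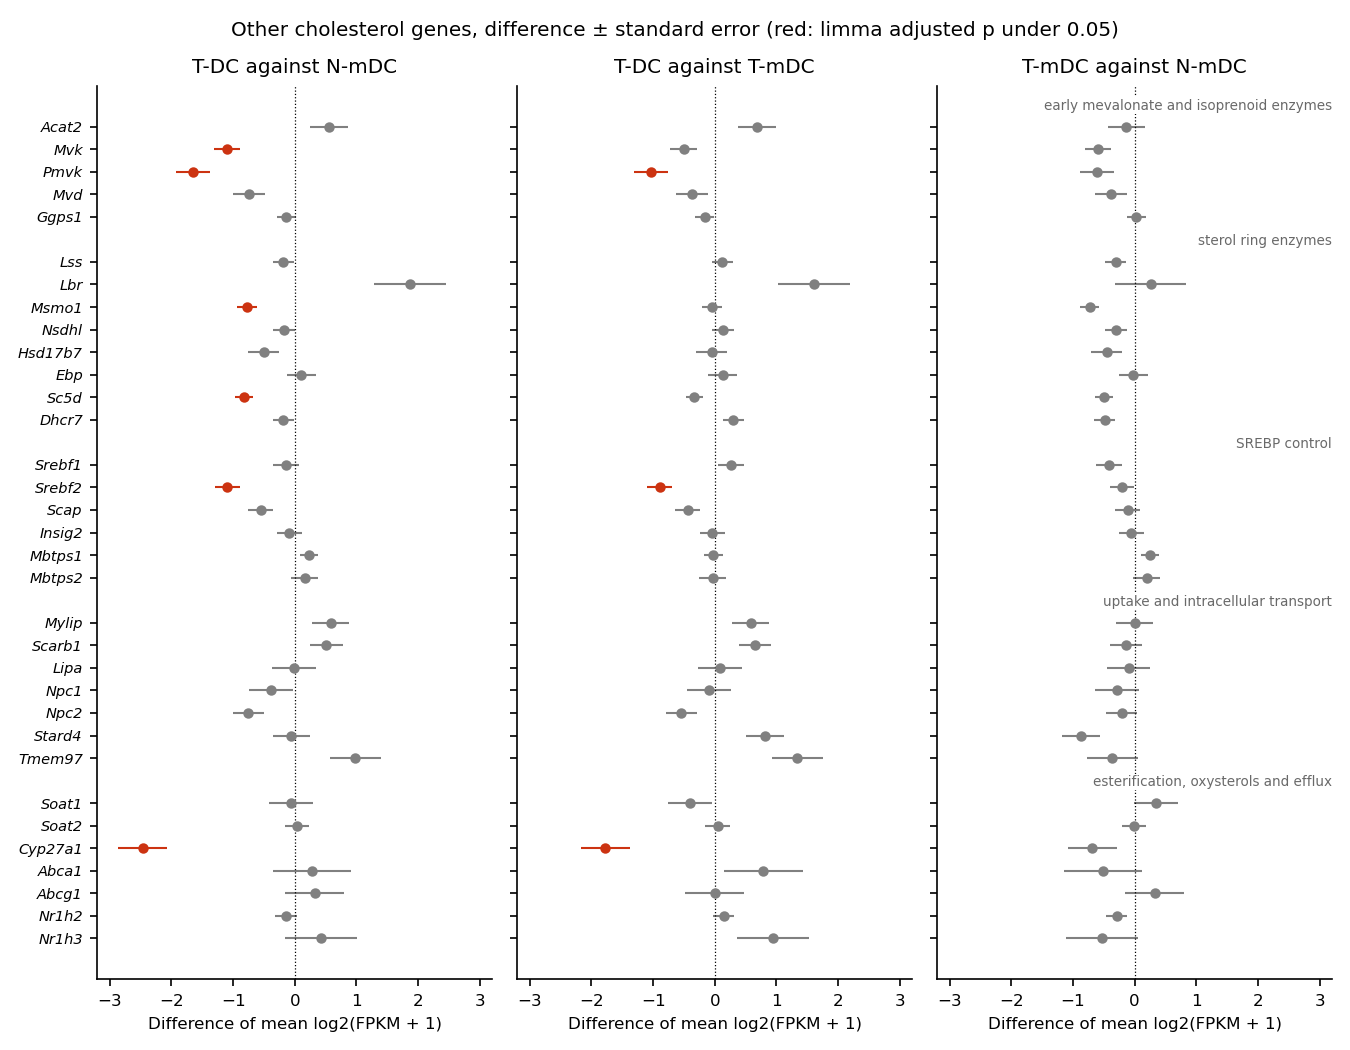
Difference of mean log2(FPKM + 1) (x axis) for the 33 other tested genes of cholesterol metabolism (y axis, in 5 lists) in the 3 comparisons; points are limma estimates, bars ± 1 standard error, and red marks a limma adjusted p under 0.05. There are 6 red points in T-DCs against N-mDCs and 3 in T-DCs against T-mDCs, all below 0, and 0 in T-mDCs against N-mDCs.

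The mean profile of the 6 genes over the 9 samples was compared with every other tested gene as the root mean square difference of centred log2(FPKM + 1). The nearest were Gm20559 (0.203), Pnma1 (0.216), the kinase gene Pim1 (0.225), Ifi206 (0.230) and Tnfsf8 (0.237). The 6 genes themselves stood farther from their own mean, Idi1 at rank 135 of the tested genes, Cyp51 at 209, Hmgcs1 at 247, Sqle at 1568, Fdft1 at 2239 and Insig1 at 3982.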

How the data were processed

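Values were the FPKM of 54532 genes in 9 samples, which the authors deposited as a table with gene lengths. Genome build mm10 comes from the submitters' processing notes; the aligner, counter and annotation are not given in the sources used here. Multiplying deposited FPKM by length gave whole reads in every sample, used for read counts and voom. Groups were compared with limma (version 3.58.1, R 4.3.3), using an empirical Bayes trend, on log2(FPKM + 1), and the procedure was tested on simulated data. The rule named the 7 members, list genes past the threshold, Srebf1, Srebf2, Scap and Insig2, and the 5 nearest profiles. The 7 genes and the lists were chosen with earlier results of these data known. Markers, Lbr, Npc2 and Tmem97 were named beside a result. Of 40 list genes, 36 are counted and the others are not reported here, so list counts do not cover the whole lists. Similar sequences were sought with blastn 2.17.0 and promoters were from RefSeq GRCm38.p6. Other settings were a pseudocount of 0.1, no filter, a filter at 5 FPKM, TPM, quantile normalization, only the groups compared, array weights, a replicate block, voom, T-mDC samples 2 and 3 as 1 sample, a red cell covariate and leaving out each sample; the cell cycle covariate and leaving out T-DC samples 2 and 3 were chosen after seeing the data.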

Additional observations from a re-analysis of the deposited data

How the results depend on the processing

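Fdps had 3 to 24 reads and was not compared, and 3 samples per group set the width of the intervals. Between T-DCs and N-mDCs, Cyp51 was past the threshold in 22 of 22 alternatives, Hmgcs1 and Insig1 in 20 of 22 (lost with the red cell covariate and without T-DC samples 2 and 3), Fdft1 in 4, Sqle in 3 and Idi1 in 0. For Fdft1 and Sqle these calls went in both directions, higher in some alternatives and lower in others. Causes were not tested.

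The count of the 6 genes called in T-DCs against N-mDCs was 3; it was 1 with the red cell covariate (3.93% of all tested genes called) and 5 with the cell cycle covariate (10.7%), and 3 to 5 on leaving out a sample (5 without T-DC sample 1, where 39.5% of all tested genes were called). Against T-mDCs it was 0. It was 2 with TPM, quantile normalization or voom, where 13.5%, 14.2% and 15.1% of all tested genes were called. It was 4 with array weights and 1 with the cell cycle covariate (20.8% of all tested genes). On leaving out a sample it was 0 to 3 (3 without T-DC sample 1, beside 35.1% of all tested genes). In T-mDCs against N-mDCs it was 0. It was 4 with only the groups compared (6.67% of all tested genes) or array weights and 3 with the cell cycle covariate (6.88%). On leaving out a sample it was 0 to 4 (4 without T-DC sample 1, beside 8.02% of all tested genes). With array weights 66.6% and 77.9% of all tested genes were called in T-DCs against N-mDCs and T-mDCs, and 30.1% in T-mDCs against N-mDCs.

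Of the 33 list genes, 6 were called in T-DCs against N-mDCs, 21 with array weights and 3 with the red cell covariate, and 5 to 12 on leaving out a sample (12 of 33 without T-DC sample 1, near the 39.5% of all tested genes). Against T-mDCs 3 were called, with shares over all tested genes given in brackets. The count was 1 with no filter (4.43%), 23 with array weights (77.9%) and 6 with the cell cycle covariate (20.8%). It was 0 with only the groups compared (8.13%), T-mDC samples 2 and 3 as 1 sample (4.24%) or the red cell covariate (0 of all tested genes). On leaving out a sample it was 0 to 10 (10 without T-DC sample 1, near the 35.1% of all tested genes). In T-mDCs against N-mDCs 0 were called. The count was 1 with only the groups compared (6.67%), 10 with array weights (30.1%) and 5 with the cell cycle covariate (6.88%). On leaving out a sample it was 0 to 3 (3 without T-DC sample 1, beside 8.02% of all tested genes). The replicate block gave 1 list gene against T-mDCs, beside 9.83% of all tested genes. The block left 3 of the 6 genes called in T-DCs against N-mDCs, beside 10.8%. Deviations from the group mean correlated at -0.47 to 0.27 between samples of the same number. With 3 samples per group this cannot tell whether samples of the same number came from the same mouse.

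Signs turned as follows. In T-DCs against N-mDCs, Sqle was 0.40 with array weights and -0.49 to 0.53 on leaving out a sample. Fdft1 was -0.069 with a pseudocount of 0.1, -0.15 with TPM, -0.046 with quantile normalization, -0.17 with voom, -1.15 with the red cell covariate, -1.23 with the cell cycle covariate, -1.38 without T-DC samples 2 and 3, and -0.42 to 0.72 on leaving out a sample (-0.03 without N-mDC sample 1, -0.24 without T-DC sample 3). In T-DCs against T-mDCs, Sqle was -0.61 with the red cell covariate and -0.45 without T-DC samples 2 and 3, and Fdft1 -0.95 and -0.67. With array weights, Idi1 was 0.18 and Msmo1 0.044, and on leaving out a sample they were -0.51 to 0.30 and -0.097 to 0.0020. Srebf2 was 0.012 with TPM in T-mDCs against N-mDCs.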
